A study of Mus musculus with 12 samples.

Results

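The genes described here are 10 members of the interleukin-1 (IL-1) family and its inflammasome, taken by gene symbol from a table of 44345 rows: the ligands Il1b, Il18 and Il33, the receptor antagonist Il1rn, the receptors Il1r1, Il1rl1 and Il1rap, the decoy receptor Il1r2, and the inflammasome genes Nlrp3 and Casp1. Each symbol matched 1 row. They were measured by RNA sequencing of dorsal root ganglia (DRG, which house sensory neuron cell bodies) at levels L4 to L6, the levels that feed the sciatic nerve. The animals were C57BL/6 mice of 6 to 8 weeks. The vehicle group was gavaged daily with phosphate-buffered saline (PBS) for 10 days, and the IPA group with 20 mg/kg of indole-3-propionic acid, a tryptophan product of gut bacteria, dissolved in PBS. The vehicle crush and IPA crush groups had the same 10 days of gavage, then a crush of the sciatic nerve, and their ganglia were collected 3 days later. IPA gavage went on over those 3 days in the IPA crush group. The comparison of IPA crush with intact IPA therefore mixes the crush with a longer course of dosing. It is not clear from the labels whether vehicle gavage also went on. This unknown bears on vehicle crush against vehicle, on IPA crush against vehicle crush and on the interaction. Each group had 3 libraries, and each library pooled the DRG of 2 mice. Sex and batch are not given in the labels.

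IL-1β, IL-18 and IL-33 are made without the usual secretion signal. IL-1β and IL-18 are cut into their active forms by caspase-1 once an inflammasome such as that of NLRP3 has assembled. IL-33 is kept in the nucleus and is released when cells are damaged. IL-1 signals through IL1R1 joined to the co-receptor IL1RAP, IL-33 through IL1RL1 (ST2) joined to the same IL1RAP, and both complexes pass the signal through MYD88 to NF-κB. Signalling is held back by IL1R2, which binds IL-1 without signalling, and by the receptor antagonist encoded by Il1rn. Cleavage and release of these proteins are not seen by RNA sequencing.

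Recovered reads per library ran from 40938034 to 62501969. Values below are the deposited values, which scale with reads per library (CPM-like) and hold no gene length, so levels of different genes are compared only after division by the length of the longest annotated transcript. The sensory neuron markers Rbfox3, Prph and Tubb3 were high in every library, with at least 169.8 for the lowest of them. With each library weighted by how closely it followed its group over all genes, vehicle crush replicate 1 had the lowest weight at 0.185, and IPA crush replicate 3 followed at 0.331 against 0.390 to 4.86 for the others. The summed level of 11 macrophage markers lay between 41.5 and 51.9 in vehicle, between 40.6 and 59.8 in IPA, between 147.0 and 160.0 in vehicle crush and between 139.4 and 164.1 in IPA crush libraries. The 10 neutrophil markers summed to 18.5 to 63.6, 22.3 to 43.1, 49.0 to 89.2 and 39.7 to 161.3 in the same order. In bulk tissue, fewer cells of a type and less RNA per cell cannot be told apart.

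Crush raised 5 of the 8 members that could be tested in vehicle mice and 4 of 8 in IPA mice, and lowered none. Il1r1 rose 2.12-fold under vehicle and 2.26-fold under IPA, and Il33, Il1r2 and Il1rn rose under both. With 0.5 added before taking logs, which shrinks low genes, the Il1r1 changes were the largest among the tested members. By the plain ratio of group means Il1r1 (2.19) stayed above Il1r2 (1.80) and Il1rn (1.96) under vehicle. Under IPA it was below them, at 2.34 against 3.20 and 3.03. Il18 rose under vehicle alone in the count of calls; the difference between its 2 changes had an adjusted p of 1.00 (limma interaction). Il1rap and Casp1 did not pass in either comparison. Among all 15603 tested genes, 23.6% were called higher after crush under vehicle and 21.2% under IPA, and 24.4% and 22.5% lower, so a call was common in this tissue. The members' median log2 change was 0.40 under vehicle and 0.45 under IPA, against -0.00 and -0.02 over all tested genes. Il1b and Nlrp3 had too few reads for the test. Il1rn and Il1r2 passed the filter on low values (at least 0.5 in at least 3 libraries) only through crush libraries, where they are high, so 2 of the 5 calls under vehicle and 2 of the 4 under IPA came by that route, and the counts and medians are a description. The plot of values by library shows all 10 genes.

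**Figure D1:**
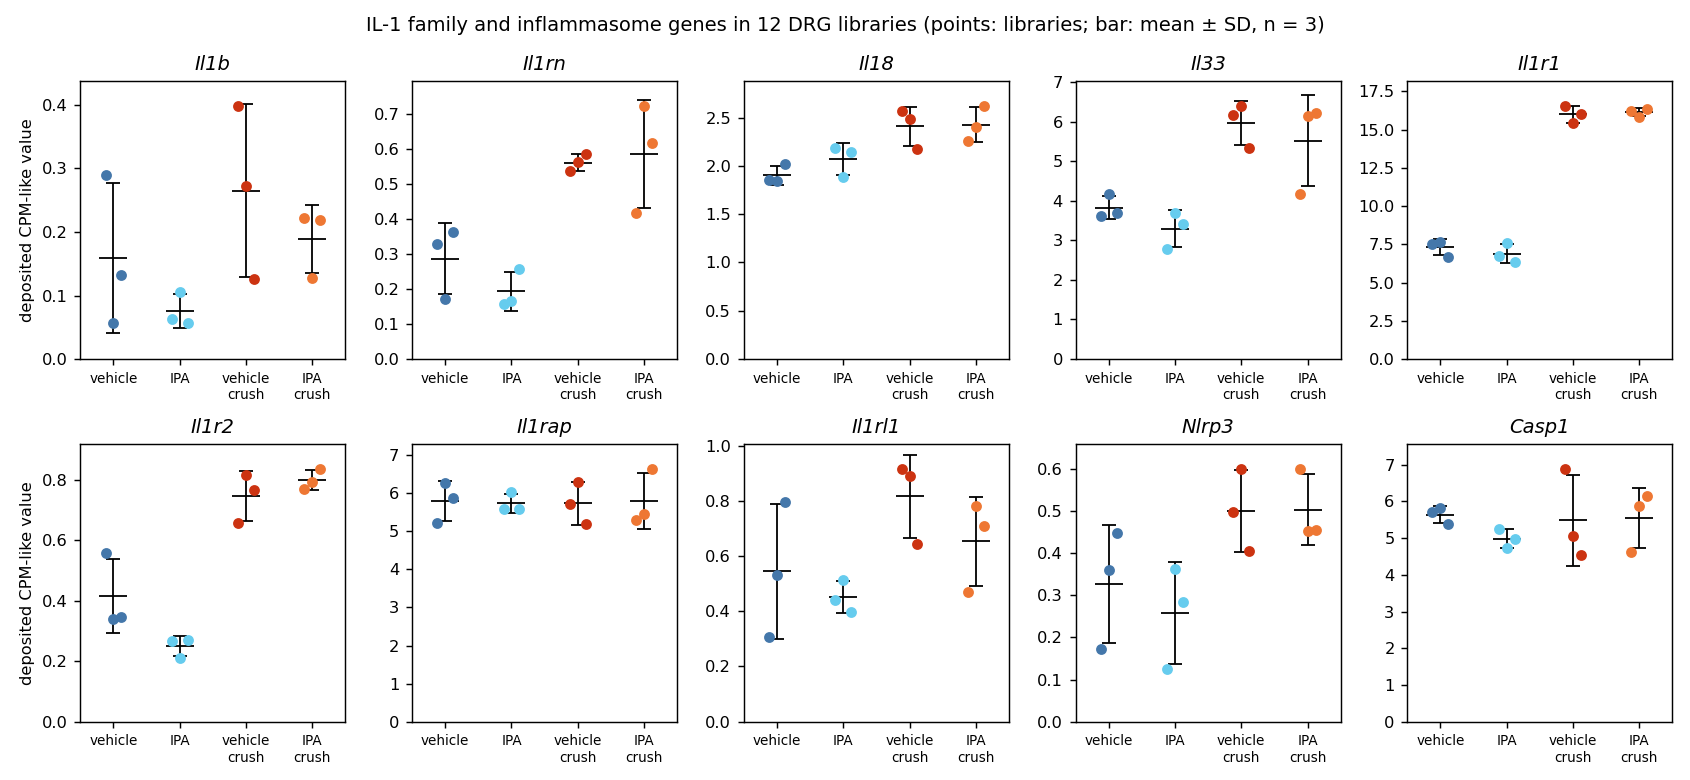
Deposited value (CPM-like, linear axes from 0) of each of the 10 genes in the 12 libraries; points are libraries, and bars show the mean ± SD of 3. The crush libraries of Il1r1 lie between 15.4 and 16.5, above all intact libraries, while those of Il1rap lie within or close to the intact range of 5.22 to 6.28.

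The contrast described first below is between Il1r1 and the co-receptor it needs. The 250 bases upstream of their starts are given here with those of the decoy Il1r2 and of Il1rn, whose product competes for IL1R1, from RefSeq on GRCm38.p6, with matches to 8 short motifs searched on both strands. Over 32851 windows of the same length, TGANTCA, the AP-1 motif, is found in 6.75%, and TGACGTCA, the CRE, in 1.55%. The C/EBP motif TTGCNNAA is in 9.56% of them, the STAT motif TTCNNNGAA in 7.02%, and the PU.1 motif GAGGAAG in 10.6%. The GC box, with the letters GGGCGG, is in 32.7%, the TATA box, TATAAA, in 12.4%, and the NF-κB consensus in 3.90%. Capitals mark the matches.
Il1r1 window 1, chr1:40224830-40225079, plus strand: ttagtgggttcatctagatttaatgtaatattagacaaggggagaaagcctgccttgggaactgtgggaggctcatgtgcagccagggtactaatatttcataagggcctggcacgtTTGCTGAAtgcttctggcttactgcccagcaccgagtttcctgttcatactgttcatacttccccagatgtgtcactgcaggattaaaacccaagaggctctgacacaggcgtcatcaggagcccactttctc
Il1r1 window 2, chr1:40266336-40266585, plus strand: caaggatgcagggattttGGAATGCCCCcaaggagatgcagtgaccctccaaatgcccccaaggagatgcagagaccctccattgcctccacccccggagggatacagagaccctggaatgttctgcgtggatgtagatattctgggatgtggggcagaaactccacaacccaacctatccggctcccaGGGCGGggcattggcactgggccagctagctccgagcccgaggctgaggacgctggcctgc
Il1r2, chr1:40085843-40086092, plus strand: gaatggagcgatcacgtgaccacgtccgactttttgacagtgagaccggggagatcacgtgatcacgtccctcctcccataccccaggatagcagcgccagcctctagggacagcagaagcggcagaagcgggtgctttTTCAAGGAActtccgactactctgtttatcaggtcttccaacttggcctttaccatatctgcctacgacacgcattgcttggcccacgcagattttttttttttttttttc
Il1rap, chr16:26581455-26581704, plus strand: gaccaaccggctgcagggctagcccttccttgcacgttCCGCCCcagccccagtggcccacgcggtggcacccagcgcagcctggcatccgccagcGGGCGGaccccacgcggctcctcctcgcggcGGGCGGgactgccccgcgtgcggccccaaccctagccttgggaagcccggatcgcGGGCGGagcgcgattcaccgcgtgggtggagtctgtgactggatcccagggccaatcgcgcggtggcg
Il1rn window 1, chr2:24336610-24336859, plus strand: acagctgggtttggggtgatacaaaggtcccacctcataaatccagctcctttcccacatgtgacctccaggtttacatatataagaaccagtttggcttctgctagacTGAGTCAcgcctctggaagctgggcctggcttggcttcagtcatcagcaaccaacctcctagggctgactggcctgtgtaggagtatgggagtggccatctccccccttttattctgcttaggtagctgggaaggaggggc
The Il1rap window is 74.4% G and C and holds 4 GC boxes in either orientation, at -212 to -207, -154 to -149, -123 to -118 and -68 to -63 from the start. Il1r1 window 1 is 48.4% G and C and holds 1 C/EBP match at -133 to -126, whereas its window 2, before an internal start, is 60.4% G and C with 1 NF-κB match at -232 to -223 and 1 GC box at -61 to -56. The Il1r2 window, which lies inside the annotated span of the gene, holds 1 STAT match at -111 to -103, and Il1rn window 1 holds an AP-1 match at -141 to -135. Il1rn windows 2 and 3 (chr2:24345041-24345290 and chr2:24345121-24345370) hold no match to the 8 motifs and are not printed. The other NF-κB match among the 10 genes was in a window of Nlrp3. No window held the CRE letters, which says only that they are not in these windows. A narrower NF-κB motif tried first matched no member window. No matches overlapped. A match is a description of the sequence and does not show that a factor binds there.

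Il1r1 (ENSMUSG00000026072; mm10 chr1:40225080-40317257, plus strand) encodes the signalling receptor for IL-1α and IL-1β. Its values were 7.52, 7.68 and 6.70 in the 3 vehicle libraries, 6.74, 7.61 and 6.35 in IPA, 16.5, 15.4 and 16.0 in vehicle crush, and 16.2, 15.9 and 16.4 in IPA crush. Every crush library lay above every intact one, and both crush groups held a narrow range. Under vehicle the log2 fold change was 1.08 ± 0.08 (SE; limma adjusted p = 6.07e-08), a fold of 2.12 with a 95% interval of 1.89 to 2.37. With IPA the log2 fold change was 1.17 ± 0.08 (limma adjusted p = 3.07e-08), a fold of 2.26 with an interval of 2.01 to 2.53. The call held in every alternative, with log2 changes of 1.03 to 1.14 under vehicle and 1.12 to 1.24 under IPA.

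Il1rap (ENSMUSG00000022514; chr16:26581704-26730117, plus strand) encodes the co-receptor shared by the IL-1 and IL-33 receptors. Its values were 5.22, 6.28 and 5.87 in vehicle, 5.58, 6.02 and 5.59 in IPA, 5.71, 6.30 and 5.19 in vehicle crush, and 5.31, 5.46 and 6.64 in IPA crush. The 4 groups overlapped throughout. The crush change was 0.991-fold under vehicle, with a 95% interval of 0.853 to 1.15 (limma adjusted p = 0.923), and 1.01-fold under IPA, with an interval of 0.867 to 1.17 (limma adjusted p = 0.946). A change of the size seen for Il1r1 lies outside both intervals. The annotation lists 7 transcripts of Il1rap, which include soluble forms as well as the membrane receptor, and the single value per gene does not separate them. An antisense gene, Gm20319, shares 552 exon bases with Il1rap but had a mean of only 0.00797.

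Per kilobase, Il1r1 and Il1rap stood at 1.25 ± 0.0900 and 1.28 ± 0.118 (SD, n = 3) in vehicle libraries, and at 2.75 ± 0.0963 and 1.27 ± 0.123 in vehicle crush libraries. The ratio of Il1r1 to Il1rap within a library was 1.12, 0.950 and 0.886 in vehicle and 0.939, 0.981 and 0.882 in IPA. After crush it was 2.25, 1.90 and 2.40 in vehicle and 2.38, 2.26 and 1.92 in IPA. By this measure, the receptor transcript was about level with its co-receptor in intact ganglia and above it in every crush library. The level of the ratio depends on the longest annotated transcript of each gene, and the transcripts present were not resolved. The crush and intact ratios did not overlap, with an exact two-sided permutation p of 0.1 in each of the vehicle and IPA comparisons, the smallest that 3 against 3 allows. This separation restates the rise of Il1r1 beside Il1rap, which was not called. The plot of both genes per kilobase shows it. Ratios of Il1rn to Il1b, Il33 to Il1rl1 and Il18 to Casp1 were also formed and overlapped in both crush comparisons.

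**Figure D2:**
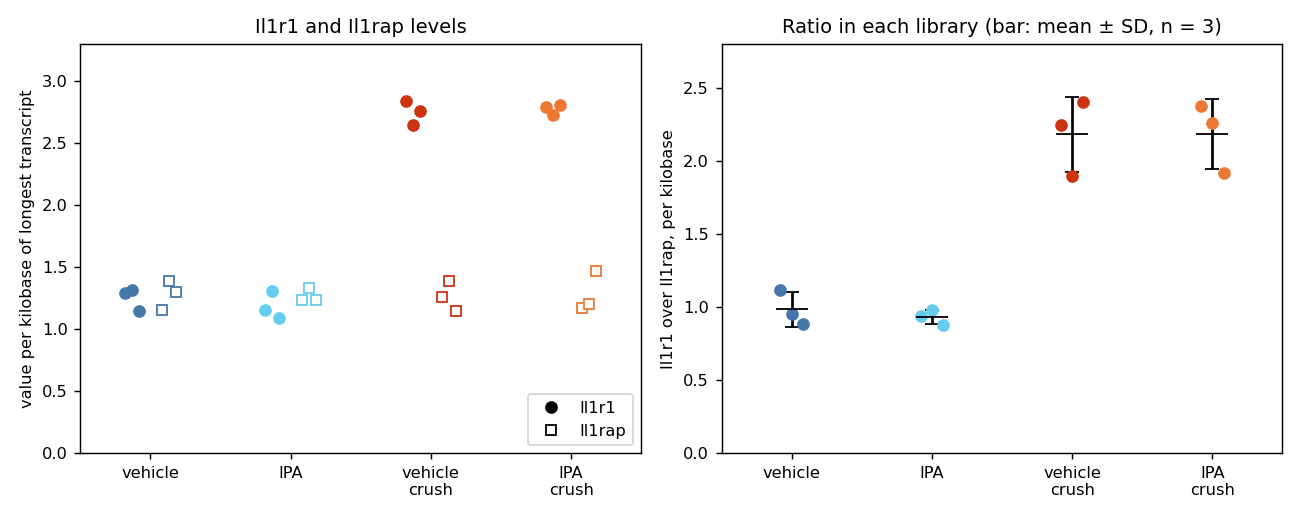
Left, the value per kilobase of longest transcript for Il1r1 (filled circles) and Il1rap (open squares) in each library; right, their ratio in each library with the mean ± SD of 3, on linear axes. The ratio lies between 0.882 and 1.12 in intact libraries and between 1.90 and 2.40 after crush.

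Il1r2 (ENSMUSG00000026073; chr1:40074079-40125231, plus strand) encodes the decoy receptor. It was scarce, with 0.559, 0.341 and 0.347 in vehicle (29, 18 and 21 reads), 0.268, 0.211 and 0.270 in IPA, 0.656, 0.817 and 0.767 in vehicle crush, and 0.769, 0.793 and 0.836 in IPA crush (59, 56 and 46 reads). Crush libraries were again all above intact ones. The crush log2 change was 0.45 ± 0.11 under vehicle (limma adjusted p = 0.00444) and 0.79 ± 0.11 under IPA (limma adjusted p = 6.21e-05). Since 0.5 is added before taking logs, this scale understates low genes, and the plain ratio of group means was 1.80 and 3.20. Only 1 intact library reached 0.5 against 6 crush libraries, so the crush groups alone let this gene be tested; in the model without the filter the adjusted p was 0.00452 and 9.98e-05 (limma). Neutrophils and monocytes are known sources of Il1r2. Of the 10 neutrophil markers, 1 rose after crush under vehicle and 4 under IPA. Their defining genes were S100a8, S100a9 and Ly6g. S100a8 had log2 changes of 0.63 (limma adjusted p = 0.308) and 1.37 (adjusted p = 0.0347), and S100a9 had 0.78 (adjusted p = 0.179) and 1.28 (adjusted p = 0.0375). Ly6g, the only vehicle call, rose by 1.80 and 1.67 but reached the filter only through crush libraries. So did Cxcr2, called under IPA alone. Without the filter S100a8, S100a9 and Cxcr2 lost their IPA calls (limma adjusted p = 0.0984, 0.104 and 0.0627). Of the 7 monocyte markers, 4 rose under vehicle and 3 under IPA, and their sum was 14.9 to 20.7 in vehicle against 40.9 to 48.4 in vehicle crush, and 14.1 to 19.3 in IPA against 32.4 to 60.4 in IPA crush. In the model without the filter Plac8 and Vcan lost their vehicle calls (limma adjusted p = 0.0902 and 0.0742), while Ccr2 and F13a1 kept theirs. Ly6c2 was called in neither comparison. Over all tested genes 23.6% were called higher under vehicle and 21.2% under IPA. The part of neutrophils and monocytes in the Il1r2 values was not tested.

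The ratio of Il1r1 to Il1r2, each per kilobase, was 4.49 ± 1.12 in vehicle, 6.88 ± 1.66 in IPA, 5.28 ± 0.786 in vehicle crush and 4.93 ± 0.194 in IPA crush (SD, n = 3). The vehicle and vehicle crush ratios overlapped (exact two-sided permutation p = 0.5). The intact IPA ratios lay above those of both vehicle and IPA crush, each with an exact p of 0.1, the smallest possible. The denominators are small in reads, so these ratios are coarse.

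Il1rl1 (ENSMUSG00000026069; chr1:40429570-40465415, plus strand) encodes ST2, the IL-33 receptor. Its values were 0.308, 0.531 and 0.794 in vehicle, 0.441, 0.513 and 0.399 in IPA, 0.915, 0.890 and 0.642 in vehicle crush, and 0.469, 0.779 and 0.709 in IPA crush. Vehicle replicate 3 lay inside the crush range, and the groups overlapped in both crush comparisons. The log2 changes of 0.35 ± 0.16 (limma adjusted p = 0.0918) and 0.27 ± 0.16 (adjusted p = 0.204) did not pass. Without vehicle replicate 3, the vehicle change was 0.52 with an adjusted p of 0.0163. The annotation lists 5 transcripts of Il1rl1, which the single value per gene does not separate.

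Il1r2, Il1r1 and Il1rl1 sit in 1 cluster on chromosome 1, in the order Il1r2, Il1r1, Il1rl2, Il1rl1, Il18r1 and Il18rap, all on the plus strand within 477.626 kilobases. Il1rl2, the IL-36 receptor, had means of 0.204, 0.240, 0.407 and 0.343 in vehicle, IPA, vehicle crush and IPA crush. Il18r1, the ligand-binding chain of the IL-18 receptor, had 0.144, 0.106, 0.186 and 0.169, and its accessory chain Il18rap had 0.311, 0.205, 0.384 and 0.480. All 3 lay below the filter on low values and have no model test. Per kilobase, Il1r1 was the most abundant of the 6 in every library. Its mean was 1.25 in vehicle and 2.75 in vehicle crush, against 0.293 and 0.526 for Il1r2, the next of them, as the plot along the cluster shows.

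**Figure D3:**
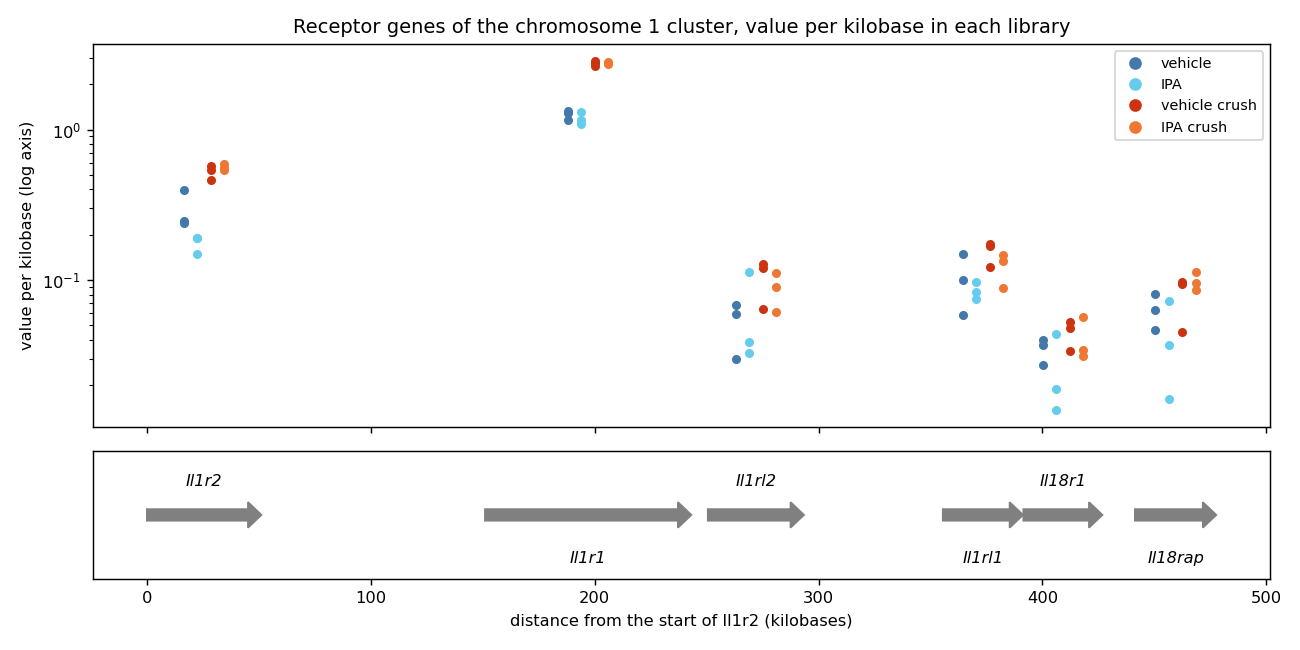
Top, the value per kilobase of longest transcript of each receptor gene in each of the 12 libraries on a log axis, with the 4 groups set side by side around the middle of the gene; bottom, the genes drawn to scale as arrows by distance in kilobases from the start of Il1r2. Il1r1 lies at 1.09 to 2.84 per kilobase over the 12 libraries, and the other 5 genes at 0.589 or less.

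Among the ligands, Il33 (ENSMUSG00000024810; chr19:29925114-29960718, plus strand) encodes a nuclear alarm cytokine. It stood at 3.62, 4.17 and 3.69 in vehicle, 2.77, 3.68 and 3.42 in IPA, 6.17, 6.39 and 5.34 in vehicle crush, and 4.19, 6.15 and 6.22 in IPA crush. All crush libraries were above all intact ones, although IPA crush replicate 1 was only just above the highest intact library. The log2 change was 0.58 ± 0.14 under vehicle (limma adjusted p = 0.00335) and 0.65 ± 0.14 under IPA (adjusted p = 0.00157). Known sources of Il33 include fibroblasts and glia. The 7 fibroblast markers summed to 557 to 650 in vehicle and 717 to 768 in vehicle crush, and to 553 to 699 in IPA and 627 to 724 in IPA crush. Of these 7, 4 rose under vehicle and 2 under IPA, with median log2 changes of 0.33 and -0.12. In the model without the filter Dpt lost its vehicle call and Dcn its IPA call (limma adjusted p = 0.0725 and 0.0943). Of 6 satellite glia markers, 2 rose and 1 fell under vehicle, and 2 rose and 2 fell under IPA, and none of 6 Schwann cell markers passed in either. The satellite glia marker Cadm2 lost its IPA call without the filter (limma adjusted p = 0.0555). Over all tested genes 23.6% were called higher and 24.4% lower under vehicle, and 21.2% and 22.5% under IPA. The part of fibroblasts and glia in the Il33 values was not tested.

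Il18 (ENSMUSG00000039217; chr9:50554827-50581840, plus strand) encodes a cytokine that caspase-1 activates. Its values were 1.85, 1.84 and 2.02 in vehicle, 2.19, 1.89 and 2.15 in IPA, 2.57, 2.49 and 2.18 in vehicle crush, and 2.26, 2.41 and 2.62 in IPA crush. Neither crush group overlapped its intact group, but the gaps were small. It rose by 0.27 ± 0.09 under vehicle (limma adjusted p = 0.0264), and under IPA the change was 0.18 ± 0.09 (adjusted p = 0.128). Leaving out vehicle replicate 1 or 2 ended the vehicle call (adjusted p = 0.0733 and 0.0756) as did leaving out vehicle crush replicate 1 or 2 (adjusted p = 0.0735 and 0.0776), so it rests on each of these 4 libraries. It was also lost without the filter (0.0850), with quantile normalization (0.114), with only the 6 libraries compared (0.0635) and in DESeq2 (0.0607).

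Il1rn (ENSMUSG00000026981; chr2:24336853-24351494, plus strand) encodes the antagonist that occupies IL1R1 without signalling. It gave 0.328, 0.171 and 0.364 in vehicle (17, 9 and 22 reads), 0.158, 0.166 and 0.256 in IPA, 0.537, 0.563 and 0.586 in vehicle crush (27, 31 and 42 reads), and 0.417, 0.723 and 0.618 in IPA crush. Crush libraries lay above intact ones throughout. The log2 change was 0.44 ± 0.13 under vehicle (limma adjusted p = 0.0138) and 0.64 ± 0.13 under IPA (adjusted p = 0.00137), while the ratio of means was 1.96 and 3.03. Leaving out vehicle replicate 2 ended the vehicle call (0.33, adjusted p = 0.0699). Because 5 crush libraries and no intact library reached the filter, only the crush groups let this gene be tested; in the model without the filter the adjusted p was 0.0165 and 0.00199 (limma).

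Il1b (ENSMUSG00000027398; chr2:129364570-129371139, minus strand), the ligand most used to mark inflammasome output, was close to the limit of detection. It gave 15, 3 and 8 reads in vehicle (0.289, 0.0569 and 0.132), 4, 7 and 4 in IPA, 20, 15 and 9 in vehicle crush, and 17, 9 and 12 in IPA crush (0.222, 0.128 and 0.218). Vehicle libraries spanned most of the range of the crush libraries. The exact two-sided permutation p was 0.5 under vehicle, and 0.1, the smallest possible, under IPA, where the groups did not overlap. A model of all rows without the filter gave adjusted p values of 0.321 and 0.236 (limma). Macrophages are a known source of Il1b. All 11 macrophage markers rose after crush under vehicle and 10 of 11 under IPA, against 23.6% and 21.2% of all tested genes. Csf1r was up by 1.36 and 1.28 and Cd68 by 1.52 and 1.40 on the log2 scale. Aif1, counted under both, lost its IPA call in the model without the filter (limma adjusted p = 0.0792). The part of macrophages in the Il1b values was not tested. The antisense gene Il1bos shares 25 exon bases with Il1b and had a mean of 0.0545; whether the counting used strand is not stated.

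Il1a, the other IL-1 agonist, is no member and was singled out after its values were seen. Its reads summed to 4 over the vehicle and 2 over the IPA libraries, against 35 in vehicle crush and 37 in IPA crush. Each crush library lay above each intact library. In the unfiltered model its log2 changes were 0.42 ± 0.06 (limma adjusted p = 3.5e-04) and 0.43 ± 0.06 (adjusted p = 3.4e-04), on a scale dominated by the added 0.5.

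Nlrp3 (ENSMUSG00000032691; chr11:59541568-59566956, plus strand) encodes the inflammasome sensor that responds to a wide range of cell damage. It gave 9, 19 and 27 reads in vehicle (0.173, 0.360 and 0.447), 8, 24 and 20 in IPA, 25, 33 and 29 in vehicle crush (0.497, 0.599 and 0.405), and 46, 32 and 25 in IPA crush (0.600, 0.453 and 0.455). The vehicle groups overlapped (exact two-sided permutation p = 0.2), and the IPA groups did not (exact p = 0.1, the smallest possible). Only 2 libraries reached 0.5, so the gene was not in the main test. The unfiltered model gave adjusted p values of 0.193 and 0.0631 (limma).

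Casp1 (ENSMUSG00000025888; chr9:5298517-5307265, plus strand) encodes the protease that activates IL-1β and IL-18. Its values were 5.70, 5.82 and 5.38 in vehicle, 5.25, 4.73 and 4.97 in IPA, 6.88, 5.05 and 4.53 in vehicle crush, and 4.62, 5.88 and 6.15 in IPA crush. The crush libraries were more widely spread than the intact ones and reached both above and below them. Its log2 change was -0.05 ± 0.13 under vehicle (limma adjusted p = 0.761) and 0.13 ± 0.13 under IPA (adjusted p = 0.437). Without vehicle crush replicate 1, the highest library, the vehicle change was -0.21 (adjusted p = 0.117).

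Ordered by level per kilobase, Casp1 led every group, with 3.76 ± 0.154 in vehicle and 3.67 ± 0.825 in vehicle crush (SD, n = 3). In vehicle libraries Il18 (2.15 ± 0.114), Il33 (1.50 ± 0.118), Il1rap and Il1r1 followed, and only the last pair overlapped. In vehicle crush libraries Il1r1 came second and overlapped Il18 (2.72 ± 0.232), which overlapped Il33 (2.35 ± 0.216), while Il1rap stood apart below them. Il1r2 was sixth in all groups and did not overlap its neighbours. Il1b, Il1rn, Il1rl1 and Nlrp3 filled the last places, each overlapping the next. Casp1 thus stood above Nlrp3 and Il1b in intact and injured ganglia alike.

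No member passed the test for IPA against vehicle, with or without crush, and none for the interaction. Without injury, 0 of 8 tested members were called, as were 0.0% of all tested genes. At an unadjusted p under 0.05 there was 1 member, Il1r2, and the smallest adjusted p among members was 0.408 (limma). After crush, 0 of 8 were called against 0.0% of all genes, none had an unadjusted p under 0.05, and the smallest adjusted p was 0.756. The interaction called 0 of 8 (0.0% of all genes), with Il1r2 alone at an unadjusted p under 0.05. Quasi-likelihood edgeR and DESeq2 on the recovered reads also called 0 members in these 3 comparisons.

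In intact ganglia the 3 IPA libraries of Il1r2 (0.211 to 0.270) all lay below the 3 vehicle libraries (0.341 to 0.559), with a log2 change of -0.28 ± 0.11 and an unadjusted p of 0.0256. Casp1 was likewise lower in every IPA library (4.73 to 5.25) than in any vehicle library (5.38 to 5.82), with a log2 change of -0.16 ± 0.13 (limma adjusted p = 0.545). Such a separation downwards was seen for 12.5% of all tested genes and for 2 of the 8 tested members. A count this small is a description, and neither member was called. After crush no member's IPA and vehicle libraries were separated, against 11.4% of all genes in either direction. For Il1r2 the crush change was larger under IPA than under vehicle by 0.34 ± 0.16, with an unadjusted p of 0.0490 and an adjusted p of 1.00. For Il1r1 the IPA differences were -0.08 in intact and 0.01 in crushed ganglia, with 95% intervals shown in the plot of changes.

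**Figure D4:**
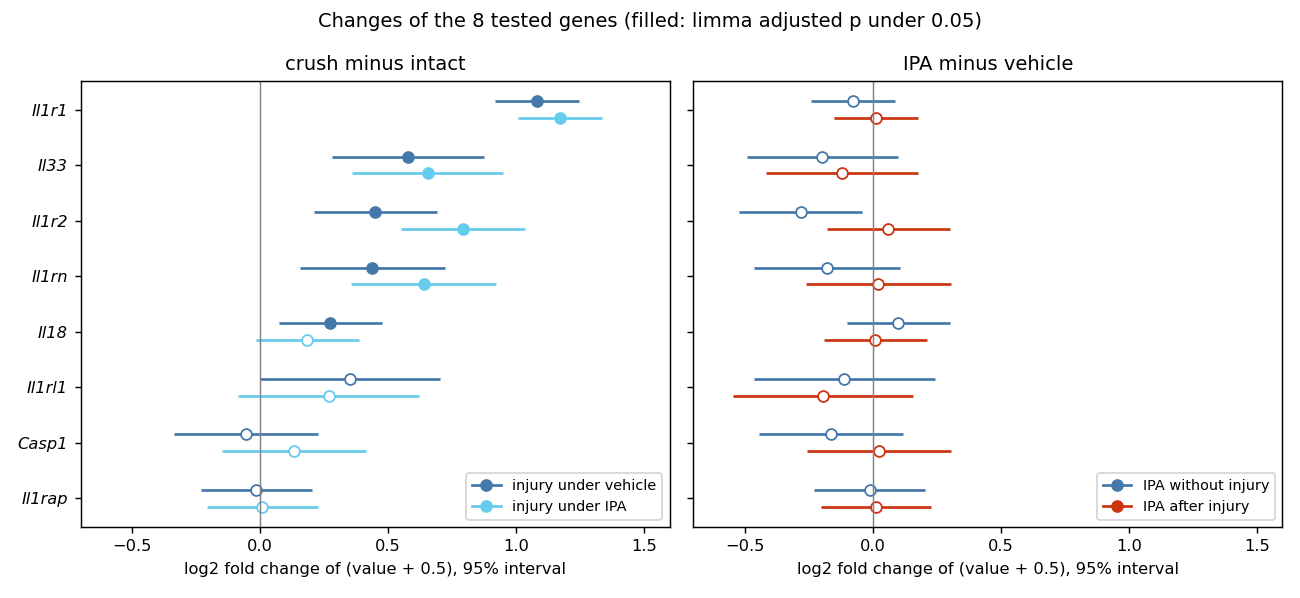
Log2 fold change of (value + 0.5) with its 95% interval for the 8 tested genes, for crush minus intact (left) and IPA minus vehicle (right); filled points have a limma adjusted p under 0.05. Filled points appear only in the left panel, 5 under vehicle and 4 under IPA.

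Counting groups without overlap rather than calls, 5 of 10 members were higher after crush under vehicle and 7 of 10 under IPA, where Il1b and Nlrp3 joined Il1rn, Il18, Il33, Il1r1 and Il1r2. The shares over all tested genes were 25.4% and 27.2%. These counts include both members that were not tested. The crush calls were also made without vehicle crush replicate 1: Il1r1 (log2 change 1.06), Il33 (0.55), Il1r2 (0.50) and Il1rn (0.46) still passed under vehicle, and Il18 did not. Leaving out IPA crush replicate 3, the 4 calls under IPA held, with log2 changes of 1.16, 0.57, 0.77 and 0.61 in the same order of genes.

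The wider pathway was read from lists of 83 genes sorted by role, 59 of which could be tested. After crush under vehicle 28 were higher and 6 lower, with a median log2 change of 0.19, and under IPA 25 were higher and 5 lower, with a median of 0.13. Over all tested genes the shares were 23.6% higher and 24.4% lower under vehicle, and 21.2% and 22.5% under IPA, and the counts by role below stand against these. The lists were chosen with earlier results of these data known, so the counts are a description. Of the genes counted, Il36g, Aim2 and Il6 passed the filter only through crush libraries; in the model without the filter each kept its call, with adjusted p values up to 1.4e-04 under vehicle and 0.00124 under IPA (limma). None passed for IPA against vehicle, in either state, or for the interaction. Of the ligands 1 of 6 was tested: Il36g (listed under its older symbol Il1f9), an IL-36 cytokine, rose from 0.198 ± 0.0591 to 0.874 ± 0.0769 under vehicle (SD, n = 3; log2 change 0.98, limma adjusted p = 4.4e-05) and by 0.74 under IPA. Of 7 further receptors and decoys 3 were tested, and Il1rapl1, a neuronal relative of Il1rap, fell by 0.58 under vehicle (adjusted p = 0.00251), while the IPA change of -0.32 did not pass (adjusted p = 0.0658).

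Of 14 receptor signalling genes, 6 rose and 1 fell under vehicle, and 5 rose and 1 fell under IPA. Irak3, which restrains signalling downstream of MYD88, went from 4.24 ± 0.0425 to 7.40 ± 0.246 under vehicle, a log2 change of 0.74 ± 0.07 (limma adjusted p = 1.7e-06), and rose by 0.84 under IPA. The adaptor Myd88 rose by 0.53 and 0.42, and Tollip, a brake on the pathway, by 0.27 and 0.33. Tab3, which links TRAF6 to the kinase TAK1, fell by 0.68 and by 0.51. The genes that rose thus included both transmitters and brakes of the signal. Of 14 NF-κB genes, 6 rose and 1 fell under vehicle, and 5 rose and 1 fell under IPA. Rela, the main activating subunit, rose from 30.9 ± 2.16 to 47.8 ± 5.84 under vehicle (0.61, adjusted p = 2.7e-05). Nfkbiz, a nuclear cofactor of NF-κB, rose by 1.08 and 0.71, Nfkb2 by 0.58 and 0.38, and the inhibitor Nfkbib by 0.34 and 0.35. Among the genes counted, Map3k8 lost its vehicle call without the filter (limma adjusted p = 0.0610). Irak4 (0.126) and Nfkbie (0.0669) lost their IPA calls.

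Of 11 other inflammasome sensors 5 were tested, and the same 3 rose under vehicle and under IPA. Aim2, a sensor of DNA in the cytosol, went from 0.370 ± 0.00825 to 1.76 ± 0.0580 under vehicle (1.38 ± 0.13, limma adjusted p = 1.5e-06) and rose by 1.18 under IPA. Nlrp12 rose by 0.99 and 0.94, and Naip2, which binds bacterial secretion proteins, by 0.44 and 0.46. Naip2 lost both calls in the model without the filter (adjusted p = 0.0658 and 0.0599). Of 7 adaptor and executioner genes, 4 rose and 1 fell in each comparison. Pycard, the ASC adaptor that joins sensors to caspase-1, rose from 0.431 ± 0.134 to 1.24 ± 0.149 under vehicle (0.91 ± 0.14, adjusted p = 1.1e-04) and by 0.68 under IPA. Casp4, the caspase that binds bacterial lipopolysaccharide, rose by 0.74 and 0.57, and Casp8 by 0.75 and 0.47. Gsdme, a pore-forming gasdermin, fell by 0.24 and by 0.29. In the model without the filter Casp8 lost its IPA call (limma adjusted p = 0.128). Gsdmd, also counted as higher, lost both of its calls there (0.0747 and 0.0714). Casp1 itself passed in neither comparison. The crush rise of the 11 macrophage markers given above accompanied these changes, and its part in them was not tested.

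Of 9 inflammasome regulators, 4 rose and 2 fell under vehicle, and 3 rose and 2 fell under IPA. Panx1, a membrane channel that releases ATP, rose by 0.37 and 0.41, and Card19 by 0.73 and 0.76. The ATP-gated channel gene P2rx4 rose by 0.26 under vehicle, with 0.15 under IPA (limma adjusted p = 0.0518). Nek7, the kinase that NLRP3 needs to assemble, fell from 211 ± 11.5 to 147 ± 16.8 under vehicle, by 0.52, and by 0.41 under IPA. Of 15 genes that IL-1 is known to induce, 6 were tested and 4 rose in each comparison. Il6 went from 0.0762 ± 0.0684 to 1.13 ± 0.131 under vehicle (1.50 ± 0.12, adjusted p = 1.9e-07) and rose by 1.35 under IPA, and the chemokine gene Ccl2 rose by 1.10 and 0.95. Vcam1, an adhesion molecule, rose by 0.38 and 0.46, and Icam1 rose by 0.63 under vehicle, with 0.30 under IPA (adjusted p = 0.226). Without the filter Vcam1 lost both calls (limma adjusted p = 0.116 and 0.0654). Lcn2, called under IPA alone, lost its call too (0.0728). The genes of this list answer to other signals as well as to IL-1.

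**Figure D5:**
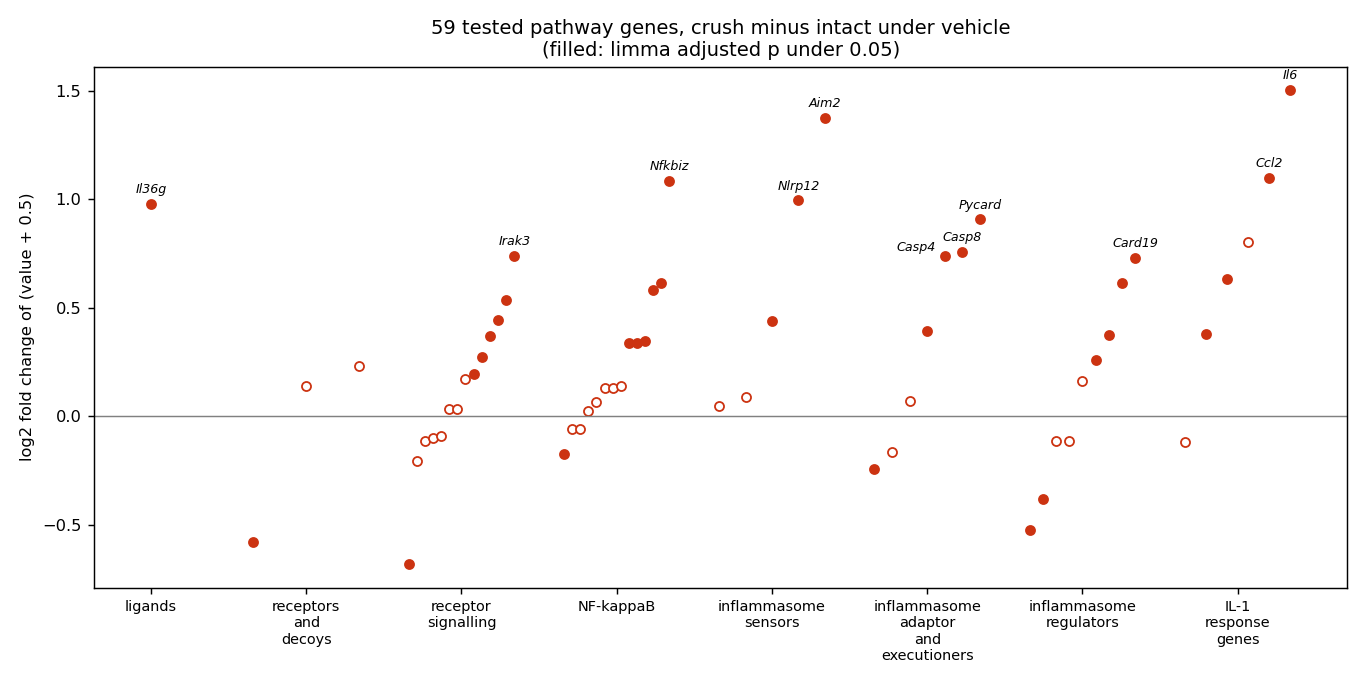
Log2 fold change of (value + 0.5), crush minus intact under vehicle, for the 59 tested pathway genes sorted by role; each point is a gene, ordered by its change within its role, and filled points have a limma adjusted p under 0.05. Of the filled points 28 lie above 0 and 6 below.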

How the data were processed

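Directional libraries were made from poly(A) RNA (integrity number over 8.0) and sequenced as 75-base pairs, per the labels' protocols. From the submitters' processing notes come the build mm10 and the tools FastQC 0.10.1, STAR 2.7.0, R 3.5.0, limma 3.38.3 and edgeR 3.24.3. Which tool counted the reads, and on which annotation, is not given in the sources used here. A single file, named FPKM, holds every value, yet the values the authors deposited are CPM-like: within each library 100.0% were whole multiples of a single step (tolerance 1e-06), and columns sum to 803444 to 818767. The reads behind each value were recovered from this step.

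The main test was limma-trend (limma 3.58.1, R 4.3.3) on log2(value + 0.5), in 1 model of all 12 libraries with 8 residual degrees of freedom. Rows with at least 0.5 in at least 3 libraries were kept (15603), and p values were Benjamini-Hochberg adjusted over them with a threshold of 0.05. The script was tested on simulated data. On recovered reads, edgeR 4.0.16 called 7493 genes for crush under vehicle and 6936 under IPA, and 0 in the other comparisons. Exact permutation tests were used for genes below the filter. Gene coordinates and lengths are from GENCODE M21 (mm10), and 36588 of 38253 Ensembl IDs matched it. Without separate records of handling, p values measure the spread between pools of mice.

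Named were all 10 members; up to 4 pathway genes per role with the smallest p among those that passed under vehicle; the first 3 markers of each cell type where a result needed them; and the 2 genes closest to each tested member. Members and lists were chosen with earlier results of these data known. Alternatives were other pseudocounts, filters, scalings, weights, tools, a replicate block and each library left out; gene-by-gene array weights were added after the data were seen.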

Additional observations from a re-analysis of the deposited data

How the results depend on the processing

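Il1r1, Il33 and Il1r2 kept their crush calls in every alternative in which they were tested, and no member call changed direction. Il1rn lost its call under vehicle with quantile normalization (log2 change 0.26, adjusted p = 0.0906) and without vehicle replicate 2. For crush under vehicle 3 members were called with a filter at 1, which removes Il1rn, Il1r2 and Il1rl1 from the test, and 3 with quantile normalization, against 5; leaving out 1 library gave 3 to 6 members and 6332 to 8320 genes. For crush under IPA 2 members were called with the filter at 1, and leaving out 1 library gave 5681 to 6526 genes. Array weights, whose estimation did not converge and gave IPA crush replicate 2 a weight of 42.2, called 11150 genes and 7 members for crush under IPA, 4160 genes and 1 member (Il1r2, log2 change -0.40, adjusted p = 0.0104) for IPA without injury, 4000 genes and 1 member (Casp1) for IPA after injury, and 2126 genes and 2 members (Il1r2 and Casp1) for the interaction. Gene-by-gene weights called 3273 genes and 1 member, 324 genes and 0 members, and 2 genes and 0 members in these last 3. DESeq2 called 3, 15 and 3 genes there, with 0 members. For crush, array weights also called Casp1, lower under vehicle (log2 change -0.25, limma adjusted p = 0.0193) and higher under IPA. For IPA after injury, leaving out 1 library gave 0 to 1 genes. The replicate numbers did not pair the libraries: deviations of same-numbered libraries correlated at -0.252 to 0.286, 4 of 18 pairs above 0.1. With a replicate block, 7210 and 6515 genes and 5 and 4 members were called for crush, and 0 of each in the other comparisons. Low read counts limit Il1b, Nlrp3 and Il1rn most.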

Other observations

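For each tested member, the 2 other genes whose centred log2 levels over the 12 libraries differed least from it, by root mean square, were listed as a description. Il1r1 was closest to Klf6 (0.0738), a transcription factor that is known to be induced by nerve injury, and Mapk6 (0.0834). Klf6 had means of 58.3 in vehicle, 55.1 in IPA, 131.4 in vehicle crush and 128.0 in IPA crush. Il1r2 was closest to Tnfaip6 (0.0968), an extracellular matrix protein gene, and to Ahr (0.106), which encodes the aryl hydrocarbon receptor. Ahr had means of 14.4, 13.2, 21.8 and 22.0 in the same order of groups. Il33 was closest to Hpgd (0.114), which encodes a prostaglandin-degrading enzyme, and Cd302 (0.124). Casp1 was closest to Nqo1 (0.0739) and Arl13b (0.0754), and Il1rap to Ctnnal1 (0.0521) and Scnm1 (0.0538). Il18 was closest to Mrpl19 (0.0514) and Pomp (0.0529). Il1rn was closest to Dppa2 (0.111) and Cdca8 (0.113), and Il1rl1 to Vdac3-ps1 (0.107) and Cd96 (0.125). All these genes share the same libraries.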
